A study of Mus musculus with 6 samples.

Results

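Heat shock proteins and their DNAJ partners are the chaperones that fold, hold and refold other proteins. The members were 73 of the 21669 genes with a protein-coding transcript in the tables, taken by gene symbol: HSP70 and HSP110 genes (Hspa, Hsph), HSP90 genes, small heat shock protein genes (Hspb), the mitochondrial chaperonin pair (Hspd1, Hspe1) and DNAJ genes of the A, B and C classes. The rule reads symbols only. Poly-A RNA came from C57BL/6 mice aged 6 to 8 weeks, 24 h after surgery: 3 libraries from females and 3 from males, all of the sciatic nerve on the left side, distal stretch. Each library pooled nerves of 2 animals, so the spread between libraries is a spread between pools. The labels name axotomy, the cutting of the nerve, as the treatment of all 6 libraries, while the procedure written for them describes a sham operation that exposed the nerve and left it uncut. The injury state is therefore not settled, and unoperated nerves were not analysed here, so only the sexes and the genes themselves could be compared.

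HSP70 proteins bind unfolded stretches of other proteins and release them in cycles driven by ATP. DNAJ proteins hand clients to HSP70 and start its ATP hydrolysis through their J domain, and HSP90 takes over many half-folded kinases and receptors. Some members are made in every cell at all times, while the heat shock factor HSF1 raises others when unfolded protein builds up in the cytosol. Chaperones of the endoplasmic reticulum (ER) answer instead to the unfolded protein response. In nerve, Schwann cells make large amounts of membrane and secreted protein, which passes through the ER.

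The sequence before the members' gene starts was searched for the elements named after these responses. RefSeq promoter windows of the GRCm38.p6 build were found for 58 of the 73 members, and the 250 bases before each start were searched on both strands. The ER stress element, CCAAT and CCACG parted by any 9 bases, or its reverse complement, was in 3 members, Hspa5, Hsp90b1 and Dnajc3, in 0.113% of all 32851 windows and in 0.1295% of the 27025 genes that have one. All 3 encode ER proteins. The searched bases of Hsp90b1 held 2 matches, of which 1 lies in its stretch below. A heat shock element of 2 units, GAANNTTC or TTCNNGAA, was in 14 members (24.1%), in 12.8% of all windows and in 14.55% of genes. Of these members, 5 are among the 6 inducible cytosolic genes with a window, while others lie elsewhere, such as the ER gene Dnajc10. A 3-unit element, in which GAA and TTC alternate with any 2 bases between them, and which contains 2-unit matches, was in Dnajb6, Hspd1 and Hspe1, in 0.466% of windows and in 0.514% of genes, and in 0 of the 6 inducible cytosolic genes. A match describes these letters only and is not evidence of binding. The stretches below are those of the ER members with the element, of the near-identical inducible pair Hspa1a and Hspa1b, of Hsph1, and of the start shared by Hspe1 and its opposite neighbour Hspd1. They run 5′ to 3′ on the gene's strand, with the matched element in capitals, which for Hspe1 are 3 overlapping 2-unit matches joined. The stretches are cut where an annotated exon begins, to 30 bases if the element lies in one. They lie at chr2:34772020-34772049 (+) for Hspa5, chr10:86705510-86705644 (-) for Hsp90b1 and chr14:118937732-118937931 (+) for Dnajc3. Those of Hspa1a and Hspa1b lie at chr17:34972157-34972356 (-) and chr17:34959239-34959438 (-), that of Hsph1 at chr5:149636351-149636380 (-) and that of Hspe1 at chr1:55088058-55088087 (+).
Hspa5: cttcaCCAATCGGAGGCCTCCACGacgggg
Hsp90b1: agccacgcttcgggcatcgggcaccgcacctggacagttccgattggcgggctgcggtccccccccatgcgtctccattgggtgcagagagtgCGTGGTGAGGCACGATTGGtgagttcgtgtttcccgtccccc
Dnajc3: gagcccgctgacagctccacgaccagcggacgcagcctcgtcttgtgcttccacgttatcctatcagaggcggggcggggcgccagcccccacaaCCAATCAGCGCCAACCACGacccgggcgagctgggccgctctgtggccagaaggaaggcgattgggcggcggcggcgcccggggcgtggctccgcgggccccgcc
Hspa1a: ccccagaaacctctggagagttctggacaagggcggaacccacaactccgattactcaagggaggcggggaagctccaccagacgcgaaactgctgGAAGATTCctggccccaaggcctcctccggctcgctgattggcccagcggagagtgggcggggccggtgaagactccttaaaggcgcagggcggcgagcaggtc
Hspa1b: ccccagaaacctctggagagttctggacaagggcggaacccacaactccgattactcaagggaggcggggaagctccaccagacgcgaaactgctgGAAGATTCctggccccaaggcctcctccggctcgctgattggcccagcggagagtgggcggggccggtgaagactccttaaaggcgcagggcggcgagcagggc
Hsph1: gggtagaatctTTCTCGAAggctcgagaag
Hspe1: gTTCTAGAACCTTCCGGAAggccccgcgcg
The Hspa1a and Hspa1b stretches were identical at 199 of 200 bases, with the element from 104 to 97 bases before each start. Their transcripts, of 2967 and 2803 bases, were also nearly the same where they aligned, at 99.5% identity over 2196 bases with 5 gaps. The split of reads between these genes is thus an estimate.

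Libraries held 50243309 to 70724327 estimated reads on protein-coding transcripts, 90.3% to 91.1% of all reads. Myelin genes marked the tissue as nerve, the 10 myelinating Schwann cell markers summing to 10983 to 28709 TPM, a level scaled to transcript length and library. All 10 had lower female than male values by log2 fold change (female minus male, median -0.79), as did 6 of 7 nerve fibroblast markers (median -0.51). By contrast 6 of 7 neutrophil markers lay above 0. Below 0 were 1 of 7 macrophage, 1 of 7 endothelial and 3 of 7 smooth muscle markers. Of the adipocyte and tested skeletal muscle markers, 0 of 8 and 0 of 11 lay below 0. Among 11 immediate early and dissection stress markers 8 lay below 0 (median -0.09). Their sums were 734 to 1022 TPM, highest in male 3. No marker passed the test. Female 2 and male 1 stood apart in skeletal muscle RNA: 12 muscle markers summed to 1206 and 600.3 TPM there and to 8.79 to 22.5 TPM in the other 4 libraries. Male 1 also had the highest sum of myelinating Schwann cell markers, 28709 TPM, and female 2 the lowest, 10983 TPM. Macrophage markers were lowest in male 1, at 1016 TPM against 1301 to 2062 TPM in the other libraries. The part of these differences in cell make-up in any result below was not tested, and in bulk RNA fewer cells of a type and less RNA per cell cannot be told apart.

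The family was abundant and unevenly so. Together the members took 0.602% to 0.660% of all TPM, with the 4 most abundant genes holding 52.5% of that on average. These were Hspa8, the constitutive cytosolic HSP70, Hspa5, the HSP70 of the ER (BiP), and the HSP90 genes Hsp90ab1 and Hsp90b1. By mean level 13 members stood above 100 TPM, 37 between 10 and 100 TPM, 12 between 1 and 10 TPM and 11 at 1 TPM or below. Of the 73, 64 had enough reads to be tested for a sex difference and 9 did not.

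No member differed between the sexes at an adjusted p under 0.05 in edgeR's quasi-likelihood test, where 0.0985% of all 15221 tested genes did (0.0131% higher in female nerves and 0.0854% higher in male nerves). At an unadjusted p under 0.05, 8 of the 64 tested members were higher in male nerves and 0 in female nerves, against 9.04% and 5.93% of all tested genes (15.0% in either direction). That count was 2 without male 1 and 3 without female 2. DESeq2 called 2 members, Hspa2 and Dnajb2, both higher in male nerves, against 3.81% of its tested genes in that direction and 5.18% in either; limma-voom and limma on log2 TPM called 0. Log2 fold changes had a median of -0.04 over the tested members and 0.01 over all tested genes, with 36 of 64 members below 0 (41 with upper-quartile scaling and 32 without male 1). In 11 of the 64 every female library lay below every male one and in 4 every female library lay above, in scaled counts, against 12.0% and 9.95% of tested genes. The share called and the share at an unadjusted p under 0.05 in either direction lie near the background. The direction at that p, the signs and the non-overlap lean to the male side, with 56.25% of members below 0 against 46.7% of all tested genes. That lean was not tested, since members share libraries. A gene that did not pass is not shown to be equal: in counts simulated for 15221 genes, the test found 14.9% of those with a log2 change of 0.5 and 74.6% of those with a log2 change of 1. The changes were put on genes drawn at random from all tested genes, so these are not rates for the members. In the same counts 13 unchanged genes were called.

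**Figure D1:**
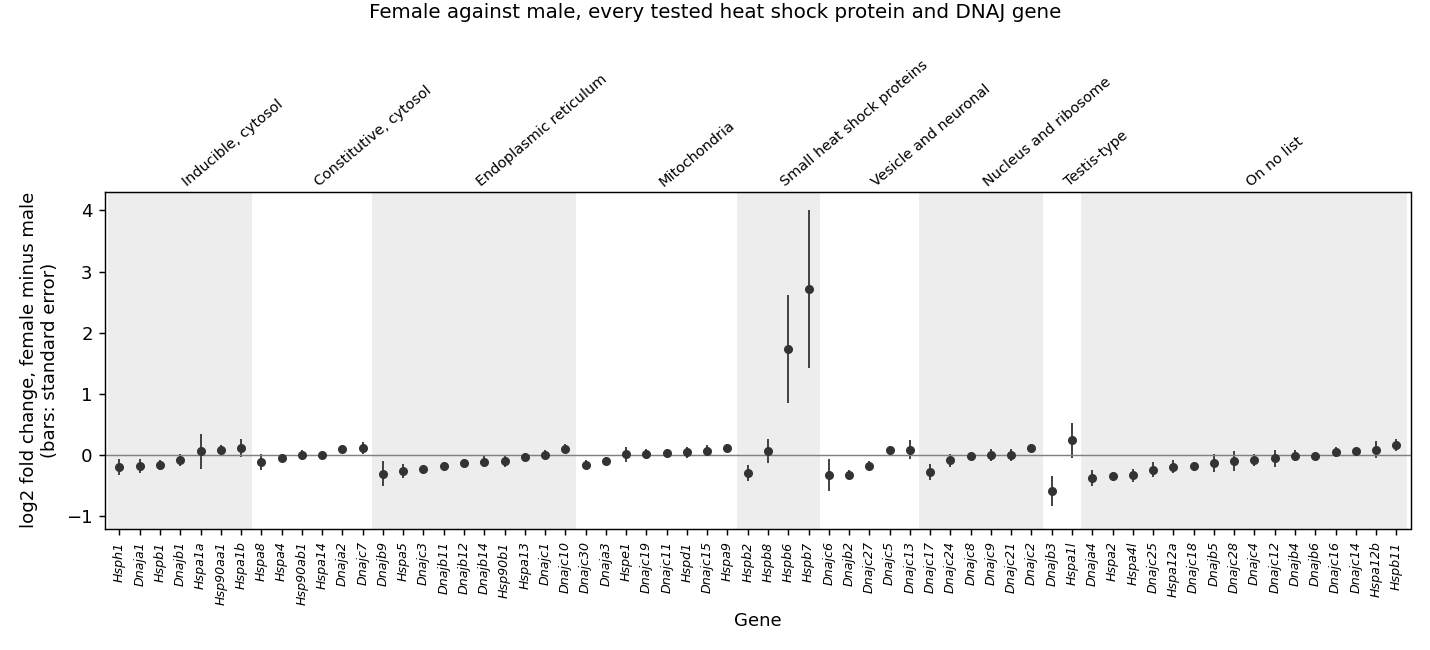
Log2 fold change, female minus male, of the 64 tested members (points) with the standard error (bars), ordered within role lists, each gene drawn once. Most points lie close to 0; Hspb7 and Hspb6, at 2.72 and 1.73, have the widest bars.

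The inducible cytosolic genes, the textbook targets of HSF1, were all expressed, with levels spread widely from gene to gene. Hsp90aa1, the inducible HSP90, was the most abundant, at 256, 266 and 292 TPM in females and 247, 255 and 266 TPM in males, here and below in the order of libraries 1 to 3 of each sex. Dnaja1, a class A partner of HSP70, stood at 128, 131 and 140.5 TPM in females and 155, 136 and 145 TPM in males. Hspb1, the small heat shock protein HSP27 of injured neurons and stressed cells, stood at 94.4, 111 and 105 TPM in females and 128, 104 and 110.3 TPM in males. Male 1 was the highest library for both Dnaja1 and Hspb1, and the sexes overlapped in each.

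Hsph1, an HSP110 that recharges HSP70 with ATP, was at 30.5, 34.5 and 34.0 TPM in females and 42.8, 37.4 and 33.4 TPM in males. Dnajb1, the main inducible DNAJ partner of HSP70, was at 22.4, 24.3 and 23.0 TPM in females and 26.8, 23.1 and 23.7 TPM in males. Both were again highest in male 1, with overlapping sexes. The inducible HSP70 genes were the lowest of the list. Hspa1b stood at 10.5, 12.7 and 9.14 TPM in females and 11.8, 8.95 and 9.68 TPM in males. Hspa1a stood at 6.34, 9.40 and 4.10 TPM in females and 7.35, 5.91 and 5.96 TPM in males, from 728 to 1514 estimated reads. Female 2 was the highest library and female 3 the lowest for Hspa1a, so the males lay inside the female range. Over the 7 inducible genes the log2 fold changes ran from -0.20 to 0.12, with a median of -0.08, and 0 passed the test. Male 1 was the highest library for 4 of the 7.

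**Figure D2:**
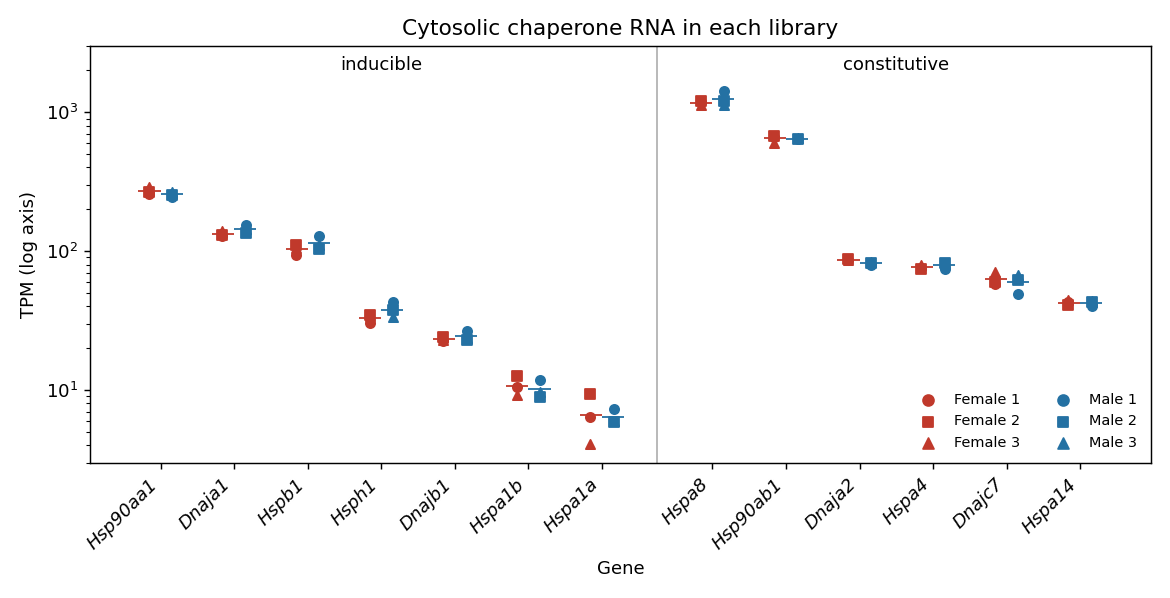
TPM (log axis) of each inducible and constitutive cytosolic chaperone gene in each library, females in red and males in blue, marker shapes giving the library number and short lines the mean of 3 libraries. The inducible Hspa1a and Hspa1b sit lowest, at 4.10 to 12.7 TPM, and the constitutive Hspa8 highest, at 1127 to 1420 TPM.

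Of the constitutive cytosolic genes, Hspa8 and Hsp90ab1 lay above every inducible gene, and the other 4 lay below Hsp90aa1, Dnaja1 and Hspb1. Hspa8, the everyday HSP70 (HSC70), stood at 1186, 1207 and 1127 TPM in females and 1419.8, 1209 and 1135 TPM in males, with male 1 alone above the rest. Hsp90ab1, the constitutive HSP90, stood at 665, 674 and 603 TPM in females and 639.7, 644 and 654 TPM in males. Male values of Hsp90ab1 lay within the female range. Dnaja2, a class A DNAJ, was at 86.3, 88.4 and 86.4 TPM in females and 79.3, 81.9 and 83.3 TPM in males, and every female library lay above every male one (log2 fold change 0.10, SE 0.07, edgeR adjusted p 0.511).

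Hspa4, a constitutive HSP110, stood at 75.7, 74.3 and 78.8 TPM in females and 74.3, 81.9 and 81.5 TPM in males. Dnajc7, which binds both HSP70 and HSP90, stood at 57.8, 59.9 and 70.2 TPM in females and 49.5, 61.7 and 67.2 TPM in males, and Hspa14, a ribosome-bound HSP70, at 40.6 to 44.3 TPM in all 6 libraries. The sexes overlapped in all 3 genes. Dnajc7 had a log2 fold change of 0.12 from its protein-coding transcripts and of -0.03 from all its transcripts. Over the 6 constitutive genes the median log2 fold change was 0.01, or -0.00562 with upper-quartile scaling, with a range of -0.11 to 0.12, and 0 passed.

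Inducible and constitutive members were then set against each other within each library. The 7 inducible genes summed to 548 to 619 TPM and the 6 constitutive genes to 2009.97 to 2303 TPM. As a share of constitutive RNA, inducible RNA amounted to 25.9%, 27.5% and 30.2% for the female libraries and 26.9%, 26.9% and 28.8% for the male libraries. The log2 ratio was -1.85 ± 0.11 in females and -1.86 ± 0.06 in males (SD, n = 3 each), a difference well inside that spread. The SD of log2(TPM + 0.1) over 6 libraries had a median of 0.15 for inducible genes (0.08 to 0.39) and 0.06 for constitutive genes (0.05 to 0.18), against 0.15 over the 12940 genes with a mean of at least 1 TPM. The ranges of both lists overlapped, and the difference was not tested. Without female 2 and male 1 these medians were 0.09 and 0.05, against 0.12 for those genes.

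Single genes were also set against each other in 4 pairs. Hspa8 exceeded Hspa1a and Hspa1b combined by 54.6-fold to 85.1-fold across libraries, whereas Hsp90ab1 exceeded Hsp90aa1 by 2.07-fold to 2.60-fold. Hspa4 exceeded Hsph1 by 1.74-fold to 2.48-fold, and Dnaja2 exceeded Dnajb1 by 2.96-fold to 3.84-fold. The last pair joins a class A with a class B gene: the inducible class A gene, Dnaja1, lay above Dnaja2 in every library, the opposite order. The sexes overlapped in the first 3 ratios. Dnajb1 over Dnaja2 was lower in every female library (log2 ratio -1.91 ± 0.04) than in every male one (-1.73 ± 0.15; SD, n = 3 each), a difference of -0.17 with all libraries and of -0.09 without male 1. With all libraries it had a two-sided exact permutation p of 0.1, the smallest that 3 against 3 can give, and 0.4 adjusted over the 4 pairs; the other pairs had exact permutation p from 0.5 to 0.9.

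**Figure D3:**
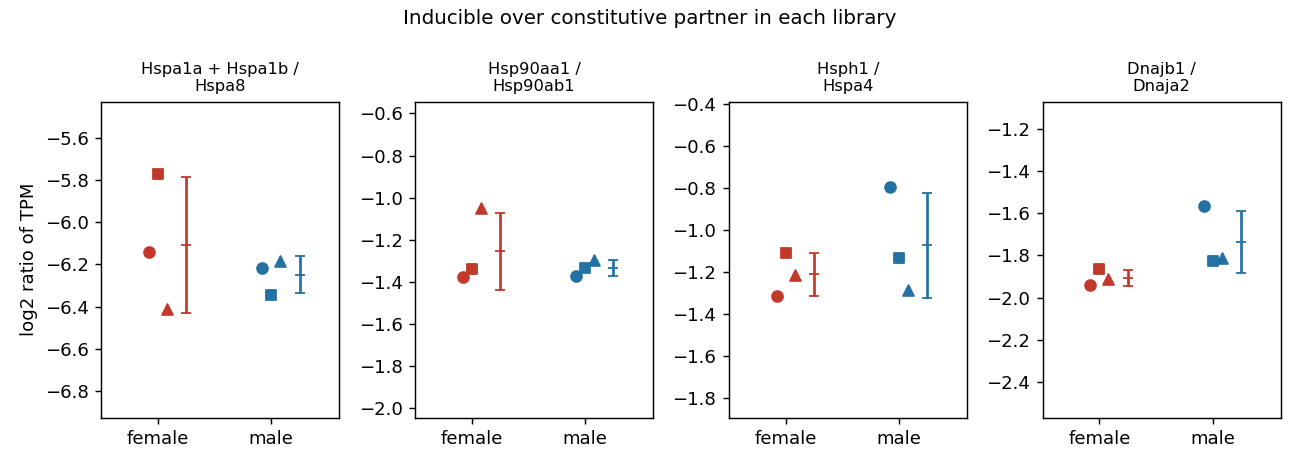
Log2 ratio of TPM of an inducible gene to the constitutive gene paired with it in each library, females in red and males in blue, with mean ± SD of 3 libraries beside the points; each panel spans the same number of log2 units. The ratio of Dnajb1 to Dnaja2 is the 1 panel in which the sexes do not overlap.

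Of the ER chaperones, 8 of 10 leaned to the male side by log2 fold change (median -0.12), against 46.7% of all tested genes below 0. None passed the test, and in 3 of the 10 all female libraries were lower than all male ones, against 12.0% of all tested genes. Hspa5, which binds new proteins in the ER and holds back the stress sensors, stood at 720.2, 773 and 707 TPM in females and 944, 844 and 824 TPM in males (log2 fold change -0.26, SE 0.11, edgeR adjusted p 0.340). Dnajc3, a DNAJ that also restrains the kinase PERK, stood at 80.2, 77.0 and 83.0 TPM in females and 94.1, 91.1 and 101 TPM in males (-0.23, SE 0.08, edgeR adjusted p 0.257). Dnajb11, an ER partner of Hspa5, stood at 105, 101 and 94.2 TPM in females and 114, 112 and 113 TPM in males (-0.18, SE 0.07, edgeR adjusted p 0.310). In these 3 genes the sexes did not overlap.

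Other ER members were less even. Hsp90b1, the HSP90 of the ER (GRP94), stood at 556, 648 and 574 TPM in females and 571, 614 and 686 TPM in males, with the sexes overlapping. Dnajb9, an ER DNAJ that is strongly raised by ER stress, stood at 49.0, 48.9 and 43.0 TPM in females and 73.8, 53.2 and 48.3 TPM in males. Male 1 alone set the gap in Dnajb9: the log2 fold change was -0.30 with all libraries and -0.05 without male 1. The Hspa5 value was -0.15 without male 1. Hspa5, Hsp90b1 and Dnajc3, the members with the ER stress element shown above, had log2 fold changes of -0.26, -0.09 and -0.23, none past the test. Myelin and fibroblast markers lay toward male nerves in the same libraries, as given above, and their part was not tested.

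**Figure D4:**
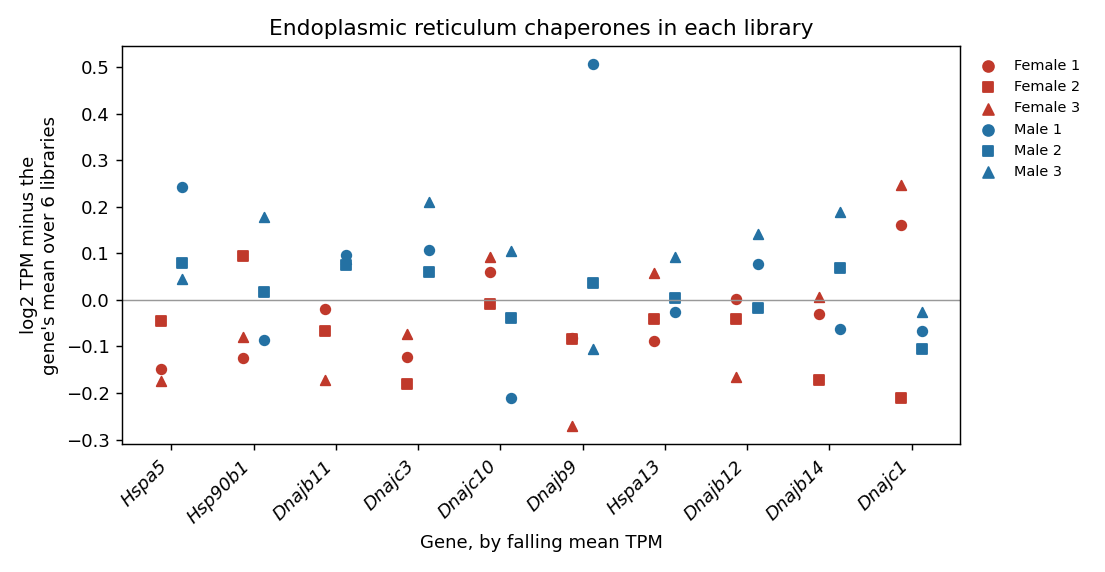
Level of each ER chaperone gene in each library as log2 TPM minus that gene's mean over 6 libraries, females in red and males in blue, genes by falling mean TPM. Every male point lies above every female point for Hspa5, Dnajb11 and Dnajc3, and male 1 stands alone at the top for Dnajb9.

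Most mitochondrial chaperones lay slightly to the female side by log2 fold change (median 0.03), with 2 the other way. Hspe1, the lid of the mitochondrial folding chamber, stood at 339, 299 and 363 TPM in females and 377, 301 and 289 TPM in males. Hspd1, the chamber itself (HSP60), stood at 255, 234 and 261 TPM in females and 242, 238 and 240.3 TPM in males. The sexes overlapped in both. Hspa9, the mitochondrial HSP70 that pulls proteins through the inner membrane, stood at 173, 168 and 172 TPM in females and 150.2, 157 and 166 TPM in males, every female library above every male one (log2 fold change 0.12, SE 0.07, edgeR adjusted p 0.445). Of the 8 members 6 lay above 0 and 0 passed. The share below 0 was 25%, against 46.7% of all tested genes. The DNAJ members Dnaja3 and Dnajc30 were instead lower in every female library, at 26.9 ± 0.441 against 28.6 ± 0.257 TPM and 13.7 ± 0.306 against 15.1 ± 0.293 TPM (SD, n = 3 each).

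Small heat shock proteins bind unfolding protein without ATP, and several are typical of muscle. Besides Hspb1, given above, Hspb8, which works with Bag3 in autophagy, stood at 32.6, 48.2 and 29.1 TPM in females and 38.3, 32.0 and 33.4 TPM in males. Hspb2, which pairs with Hspb3 in muscle, stood at 32.2, 32.0 and 36.0 TPM in females and 48.9, 37.97 and 35.6 TPM in males. Female 2 was the highest library for Hspb8 and the lowest for Hspb2, which was highest in male 1. Cryab, a small heat shock protein gene that the symbol rule leaves out, lay above Hspb1 in every library. It stood at 1007 ± 167 TPM in females and 1164 ± 69.5 TPM in males (SD, n = 3 each; edgeR adjusted p 0.364).

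Hspb7, a cardiac and skeletal muscle protein, stood at 1.12, 14.8 and 0.893 TPM in females and 1.17, 0.640 and 0.711 TPM in males. Hspb6, found in muscle of all kinds, stood at 1.62, 10.8 and 1.66 TPM in females and 1.95, 0.511 and 1.68 TPM in males. Both were thus high in 1 library, female 2, and at 0.511 to 1.95 TPM elsewhere. Their log2 fold changes were 2.72 (SE 1.29) and 1.73 (SE 0.88) with all libraries, and 0.23 and 0.25 without female 2. For Hspb6 the value was 0.97 when all its transcripts were counted. Male 1, with 121 TPM of the skeletal actin Acta1 against 324 TPM in female 2, did not share these high levels. Most of the 12 skeletal muscle markers, among them Acta1, Ckm, Myh4 and Tnnt3, were high in both libraries. Myoglobin (Mb) of that list stood at 7.34 TPM in female 2 and 0.481 TPM in male 1, and desmin (Des) of the smooth muscle list at 49.5 and 12.1 TPM. Both were chosen after their values were seen, and Tagln, of the smooth muscle list, was lowest in female 2. Adipocyte markers were also highest in female 2, summing to 1215 TPM against 358 to 753 TPM in the other libraries. Which of these sources carried the 2 genes was not tested. Hspb3 had 12 reads in female 2, 7 in male 1, 1 in male 3 and 0 in the other 3 libraries, and Hspb9 had 1 to 3 reads in each library.

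**Figure D5:**
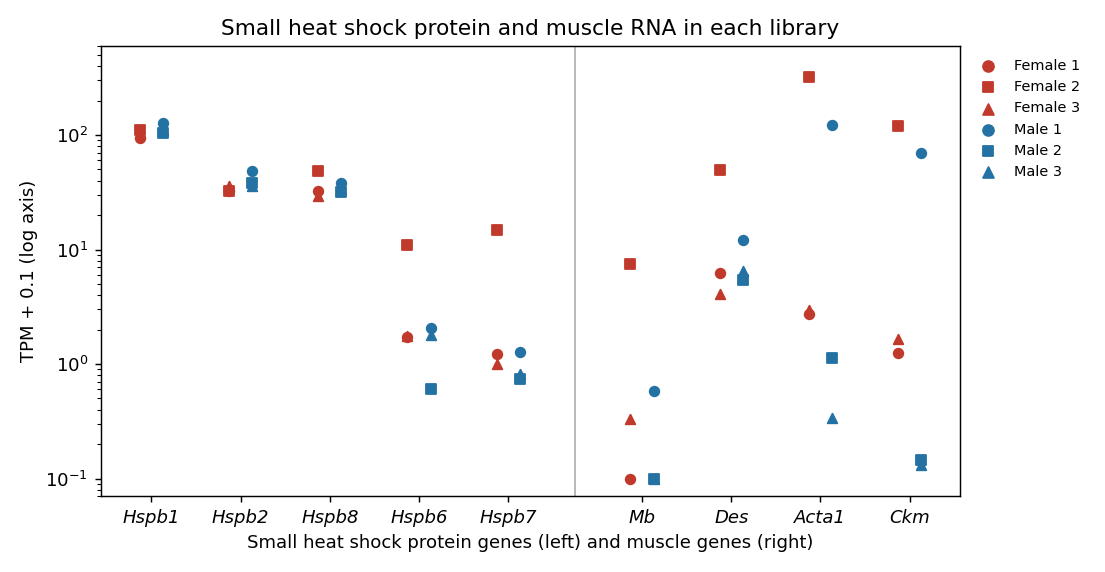
TPM + 0.1 (log axis) of 5 small heat shock protein genes (left) and of the muscle genes Mb, Des, Acta1 and Ckm (right) in each library, females in red and males in blue. Hspb6, Hspb7, Mb and Des are highest in female 2, and Mb and Des were chosen after their values were seen, whereas Acta1 and Ckm are high in female 2 and male 1.

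DNAJ proteins of vesicles and neurons were mostly at moderate levels. Dnajb2, which guards ubiquitinated clients in neurons and is mutated in inherited motor neuropathy, stood at 37.6, 34.8 and 41.1 TPM in females and 49.8, 51.2 and 51.0 TPM in males. Every male library lay above every female one, with a log2 fold change of -0.32 (SE 0.08, adjusted p 0.172 by edgeR and 0.0186 by DESeq2). Dnajc13, an endosomal DNAJ, stood at 24.4 to 39.1 TPM and Dnajc5, the cysteine string protein of synaptic vesicles, at 23.1 to 29.1 TPM over the 6 libraries. Both were lowest in male 1, and the sexes overlapped in both. Dnajc27 was lower in every female library, at 6.70 ± 0.324 against 7.63 ± 0.535 TPM (SD, n = 3 each), and Dnajc6, the neuronal auxilin, was at 0.201 to 0.396 TPM. None of the 5 passed edgeR's test.

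Nuclear and ribosome-linked DNAJ proteins were at low to moderate levels. Dnajc8, a splicing-linked protein, stood at 79.5 to 87.9 TPM over the 6 libraries, and Dnajc9, a histone chaperone of dividing cells, at 20.2 to 23.3 TPM. Dnajc2, a ribosome-associated DNAJ, stood at 32.5, 31.3 and 29.998 TPM in females and 27.3, 28.5 and 28.5 TPM in males, with no overlap (log2 fold change 0.12, SE 0.06, edgeR adjusted p 0.3899). Dnajc17 varied most, from 10.5 to 15.5 TPM, with overlapping sexes (-0.27, SE 0.13, edgeR adjusted p 0.374). Of the 6, 3 lay below 0 and 0 passed.

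Testis-type members were near or at 0. Dnajb3 was the highest, at 1.19, 1.81 and 1.79 TPM in females and 2.40, 2.52 and 2.06 TPM in males, with every female library below every male one (log2 fold change -0.59, SE 0.24, edgeR adjusted p 0.319). Hspa1l stood at 0.355 to 0.695 TPM and Dnajb7 at 0.118 to 0.242 TPM. Dnajc5g and Dnajb8 had 0 reads in all 6 libraries, which allows at most 0.0597 CPM in any of them, counting error only. Dnajc5b had at most 4 reads in any library, and Dnajb13 had 1 to 17.

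Of the 18 members outside these role lists, 16 were tested and 12 of those (75%) lay below 0, against 46.7% of all tested genes. Among the untested, Dnajc22 had at most 2 reads in any library. Hspa2, an HSP70 best known from sperm cells, had the smallest p of the family. It stood at 11.9, 12.6 and 13.2 TPM in females and 16.1, 15.6 and 16.9 TPM in males, with a log2 fold change of -0.35 (SE 0.08, adjusted p 0.162 by edgeR and 0.0102 by DESeq2). Hspa4l, an HSP110 paralog, stood at 12.2, 13.4 and 15.9 TPM in females and 18.3, 16.8 and 17.5 TPM in males (-0.32, SE 0.11, edgeR adjusted p 0.244). Dnaja4 stood at 11.5, 10.8 and 13.4 TPM in females and 17.0, 14.1 and 15.03 TPM in males (-0.37, SE 0.13, edgeR adjusted p 0.248). These 3 genes were named for their small p. In all 3, out of the 16 tested, every female library lay below every male one, against 12.0% of all tested genes. Without female 2 and male 1 their values were -0.33, -0.18 and -0.18.

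Hspa12a, a distant HSP70 relative, was the 10th most abundant member, at 108, 105 and 126 TPM in females and 128, 122 and 136 TPM in males, with overlapping sexes (log2 fold change -0.18, SE 0.10). Hspb11 lay the other way. This gene encodes a part of the transport train of cilia and shares little but its name with small heat shock proteins. It stood at 26.7, 29.04 and 27.2 TPM in females and 23.3, 23.0 and 23.5 TPM in males, every female library above every male one (0.16, SE 0.10, edgeR adjusted p 0.494).

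Other chaperone pathway genes that are not members, which are regulators, co-chaperones and further chaperones, gave the same picture. Of these 33 genes, 0 passed edgeR's threshold and 17 lay below 0, with a median of -0.01. At an unadjusted p under 0.05, 4 were higher in male nerves and 1 in female nerves, against 9.04% and 5.93% of all tested genes. Hsf1, the master factor of the heat shock response, stood at 14.6 to 17.6 TPM in all libraries, with means of 16.2 TPM in each sex. Hsf2, its relative, stood at 10.4 ± 0.361 TPM in females and 9.12 ± 1.29 TPM in males (SD, n = 3 each). Bag5, which releases clients from HSP70, had the smallest p, at 29.2 ± 2.15 against 35.7 ± 0.800 TPM (log2 fold change -0.25, SE 0.08, edgeR adjusted p 0.225). Hyou1, the HSP110 of the ER, stood at 75.1, 76.0 and 67.3 TPM in females and 89.4, 84.4 and 85.8 TPM in males (-0.26, SE 0.09, edgeR adjusted p 0.246). Hsbp1, which binds and restrains HSF1, had -0.23 (SE 0.08, edgeR adjusted p 0.255). On the female side Hsf4, a relative of Hsf1 best known from the lens, had 0.32 (SE 0.18).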

How the data were processed

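RNA of 6 libraries was compared, 3 female and 3 male, grouped by the sex in the sample titles. Tools listed by the submitters' processing notes are Salmon 1.5.2, Trimmomatic 0.39 and MultiQC 1.9. For each of 140789 transcripts the authors deposited an estimated count, not normalized, and a TPM value, which Salmon scales within a library. Build and annotation release: not given in the sources used here. Salmon divides reads between similar transcripts by an estimate.

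Members are genes whose symbol begins with Hspa, Hspb, Hspd, Hspe or Hsph and a digit, with Hsp90, or with Dnaja, Dnajb or Dnajc and a digit. Counts and TPM were summed per gene over protein-coding transcripts, counts were rounded, and low genes were removed with filterByExpr, leaving 15221. Female was compared with male by edgeR 4.0.16's quasi-likelihood test (TMM, robust, no covariate) with Benjamini-Hochberg adjustment over all genes tested; the call threshold was 0.05. Each log2 fold change is the female value minus the male value, and SE is its standard error. DESeq2 1.42.0, limma 3.58.1, other scalings and filters, and left-out libraries were alternatives. The test was tested on simulated data. Replicates of 1 sex differed by at least 29.4 per degree of freedom in a chi-square of their counts, beyond sampling noise. Intervals and limits for a count of 0 (3 reads) cover counting error only.

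Members, role lists and marker lists were chosen with earlier results of these data known. Genes named were the inducible and constitutive lists, the small heat shock genes, members past the threshold, the 5 of smallest p per direction, the 10 most abundant, the 5 most variable above 1 TPM and the 3 most abundant of each role list. Of the other chaperone pathway genes, the 3 of smallest p per direction were named. Other genes were chosen after their values were seen. Some genes that these rules select are not reported here by name.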

Additional observations from a re-analysis of the deposited data

Results flagged for a closer look

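Reads outside the protein-coding transcripts drew attention, being far above the 3 reads that a count of 0 allows. The 73 genes have 171 further transcripts, 88 of them classed as retained introns, 52 as processed transcripts and 31 as targets of nonsense-mediated decay. These held 25100 reads per library on average, 2.83% of the genes' reads in male 1 and 3.43% to 3.76% in the other 5 libraries. Dnajc7 stood out, with 60.5%, 60.6% and 57.2% of its reads on such transcripts for the female libraries and 68.1%, 60.8% and 59.9% for the male ones. For Hspb6 the share was 17.3% in female 2, the library with its high level, and 44.6% to 78.3% in the others. Dnajb13, with few reads, had 46.6% to 90.1%. For Dnajc5 the share was 29.3% to 35.4% and for Dnajb5 22.1% to 34.2%.

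Pseudogenes named after members also held reads, 81.2 per library on average over 15 pseudogenes. Nearly all fell on the 5 Hspd1 pseudogenes, at 0.291% to 0.496% of the reads of Hspd1 itself.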

How the results depend on the processing

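The count of members past the threshold was 0 under every edgeR and limma alternative and 2 with DESeq2; with all genes, DESeq2 called 756 against 15. The replicate number as a block gave 0 members, and 4 genes in all; no call on a member changed. Same-numbered female and male libraries had correlations of -0.17, -0.21 and 0.08 of their deviations. These values show no pairing by number but are too few to exclude it. The number of all genes called ran from 3 without male 2 to 139 without female 3. With each library left out in turn, the median log2 fold change of inducible members ran from -0.150 to 0.0351 and that of constitutive members from 0.00313 to 0.0347, the highest value of each without male 1. The constitutive median was 0.0317 without female 2 and male 1. The median over all tested members, -0.04, was 0.000619 without male 1. Dnajc7 had -0.0318 with all transcripts, whose 12 further transcripts take most of its reads. Of 44 genes with a fit, another 12, whose change was under its SE, changed sign under some alternative. Counts of a few reads limit the testis-type members.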

Other observations

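Transcript shares within a gene, which are Salmon's estimates, were steady between libraries for most members. Dnajb6, a DNAJ that blocks protein aggregation, had 80.8% ± 0.757 of its TPM on Dnajb6-203 in females and 80.0% ± 1.22 in males (SD, n = 3 each). Hsp90aa1-202 carried 80.7% ± 1.68 of Hsp90aa1 in females and 74.9% ± 6.52 in males. Dnajb4-202 carried 98.1% ± 0.224 of Dnajb4 in females and 95.5% ± 0.644 in males, and Dnajb2-210 carried 43.0% ± 1.72 of Dnajb2 in females and 37.7% ± 1.56 in males. These genes were chosen after their values were seen, and no test was made of the shares.

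Male 1 was the highest library for 20 of the 64 tested members (31.2%), against 14.9% of all tested genes. All 10 tested DNAJB genes had a log2 fold change below 0, from -0.59 for Dnajb3 to -0.01 for Dnajb6, where 46.7% of tested genes lay below 0. The changes of Dnajb6 and Dnajb4, both -0.01, were far under their SE of 0.07 and 0.09. None of the 10 passed the test, and their libraries are shared. In other families 12 of 25 DNAJC, 7 of 13 HSP70, 3 of 4 DNAJA, 2 of 6 Hspb and 1 of 3 HSP90 genes lay below 0. Among the Hspd, Hspe and Hsph genes 1 of 3 did. The DNAJB family was named after its values were seen.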
